A study of Zea mays with 16 samples.

Results

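The day-night difference shared by the guard cells and subsidiary cells of the maize leaf was measured by setting 8 day libraries against 8 night libraries with cell type held constant. These are all 16 libraries of the series, chosen by their labels alone, 4 of each cell type at each time. Titles of the subsidiary-cell night samples hold a word for day, and their treatment label and library name, which say night, were followed. The plants were the inbred line B104, with no transgene or other treatment named in the labels, grown with 16 h of light at 25 °C and 8 h of dark at 22 °C. Epidermis peeled from leaf 3 of 2-week-old seedlings was frozen at a day time, when the lights had been on for 2 h, and at a night time, when they had been off for 2 h, in 4 collections. Cells were cut out one type at a time with a laser, about 1500 per tube and 2 tubes per library, so each library pools many cells. Per the submitters' processing notes, the reads were set against the B73 build of the genome, which is another inbred line. How the plants of a collection were shared among libraries is not given, so a p-value measures the spread between these libraries, which may be partly technical. Light, temperature and time of day changed together between the groups and cannot be told apart, and neither can fewer cells in a library and less RNA per cell.

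A stoma of a grass is a complex of a pair of dumbbell-shaped guard cells, each flanked by a subsidiary cell. The pore opens when guard cells take up potassium and other ions, and water follows, while the subsidiary cells give up ions and shrink. In the light, many leaf transcripts rise on a daily schedule set by the circadian clock and by photoreceptors, those of chlorophyll-binding light-harvesting proteins among the best known.

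The values are the authors' normalised counts, that is reads per gene divided by a size factor for each library. The libraries held 16.6 to 28.9 M reads on listed genes, M standing for mega. A gene was tested where its value reached 10 in at least 4 libraries, which left 37759 of 38179 genes. Changes below are differences, day minus night, in log2(value + 1), averaged over both cell types with equal weight and given ± their standard error. This scale understates the change of genes at low counts. A gene is called where limma's test gave a Benjamini-Hochberg adjusted p under 0.05 over all tested genes. The files describe a gene by 1 word, the first of a longer description, and only 19.8% of tested genes have one. Groups of genes below are therefore sets of genes sharing such words, and an identifier without a word is given as it stands. Defining genes of guard or subsidiary cells were not found by name among these words, so the labelled cell types were not checked against them.

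Guard-cell night replicate 4 and subsidiary-cell day replicate 1 stood apart from the rest. Their mean rank correlations with the other libraries were 0.642 and 0.669, against 0.707 to 0.758 for the other 14. The 5 measures of library quality (reads, genes detected, share of the 50 most abundant genes, organelle-type genes and mean correlation) differed between day and night with adjusted p-values of 0.507 or more (two-sided permutation test over all 4900 relabellings within cell types). No molecular identifiers were used, so reads are not independent molecules, and the kit keeps no strand, so overlapping genes may hold each other's reads.

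Of the 37759 genes, 988 (2.62%) were called: 642 were higher by day (1.70%) and 346 higher by night (0.916%). A further measure of size is that the median change was 1.98 among the day genes and -2.11 among the night genes, against -0.02 over all tested genes. By day, 310 called genes differed by at least 2 on the log2 scale and 60 by at least 4. By night the same limits were passed by 186 and 29 genes. In 165 of the day genes the lowest of the 8 day libraries lay above the highest of the 8 night libraries, and 47 of the night genes were apart in the other direction. Over all tested genes, such separation was found for 230 genes (0.609%), 173 by day (0.458%) and 57 by night (0.151%). Within each cell type taken alone, the 4 day libraries lay above the 4 night libraries in 288 of the 642 day genes, and 95 of the 346 night genes showed the reverse in each cell type. The same pattern was found in 0.826% and 0.334% of all tested genes. Called genes were chosen on these same libraries, so their larger changes and separations follow in part from that choice. At an unadjusted p under 0.05 the fit gave 5202 genes. Without the pair of libraries that stood apart, 1309 genes were called, 751 by day and 558 by night, of which 875 were among the 988. Without guard-cell night replicate 4 alone the counts were 686 by day and 580 by night, so day genes made up 54.2% of the calls in place of 65.0%.

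An average can pass on the strength of 1 cell type, so each cell type's own contrast was read as well. These contrasts share no library, but both come from the same fit and use its common estimate of each gene's spread. They are therefore not independent tests. Guard cells alone gave 282 day genes (0.747%) and 45 night genes (0.119%), and subsidiary cells 254 (0.673%) and 207 (0.548%). There were 109 genes called in both cell types with the same sign, 93 by day (0.246%) and 16 by night (0.0424%), and 0 called with opposite signs. The 93 day genes are 33.0% of the guard-cell day calls and 36.6% of the subsidiary-cell day calls, whereas the 16 night genes are 35.6% and 7.73% of the night calls. The count of 109 was 70 without guard-cell day replicate 3, subsidiary-cell day replicate 3 or subsidiary-cell night replicate 1, and 71 without subsidiary-cell day replicate 4. It was 187 without both libraries that stood apart. All 109 were among the 988 genes of the shared contrast. That contrast is the mean of the cell types' own contrasts, so this overlap was in effect fixed in advance. Another 273 day genes and 163 night genes were called on the average but in neither cell type alone. The signs of the changes in guard and subsidiary cells matched in 641 of 642 day genes and 343 of 346 night genes, which the choice of genes on their average in part fixes. Median changes of the day genes were 2.05 in guard cells and 1.84 in subsidiary cells. For the night genes they were -1.64 and -2.39. Over all tested genes the changes in guard and subsidiary cells had a Pearson correlation of 0.21 and a Spearman correlation of 0.18, a description across genes of the same 16 libraries.

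**Figure D1:**
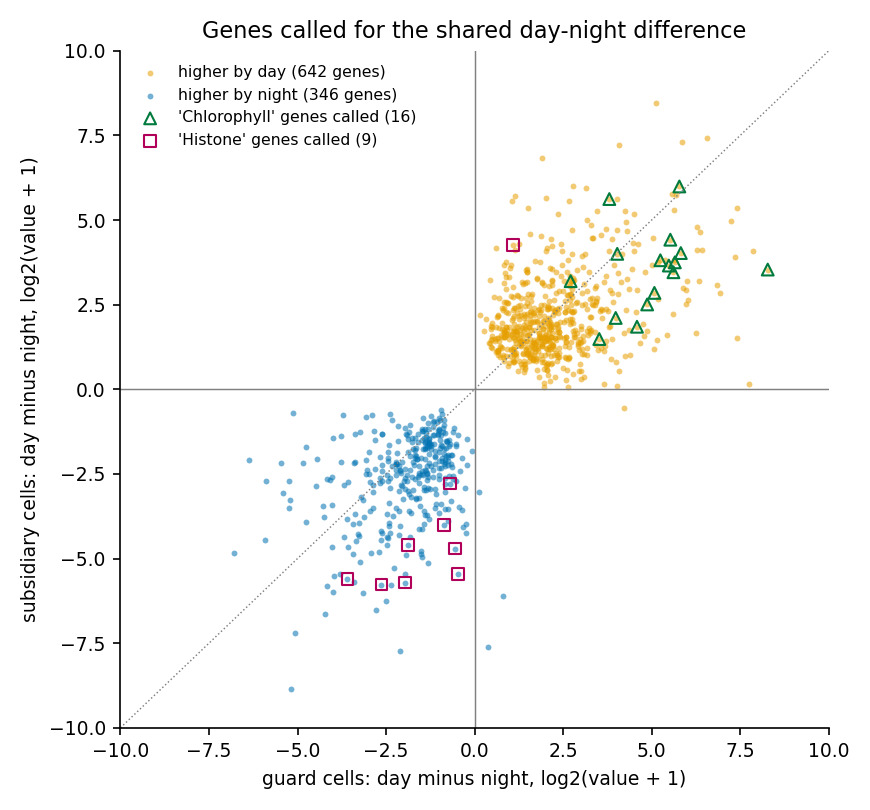
Each point is a gene called for the shared difference, placed by its day minus night change in log2(value + 1) in guard cells (horizontal axis) and in subsidiary cells (vertical axis). Orange points are the 642 day genes, blue points the 346 night genes, green triangles the 16 called genes with the word Chlorophyll and purple squares the 9 with the word Histone. The dotted line marks equal change. Day genes lie on both sides of it, and the histone squares lie further from 0 on the subsidiary-cell axis than on the guard-cell axis.

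The test of the difference between the cell types called 0 genes (limma, lowest adjusted p 0.0659), with 2533 genes at an unadjusted p under 0.05. For the same contrast edgeR called 1 gene and DESeq2 149. Genes with an unadjusted p under 0.05 for this difference numbered 130 among the 642 day genes and 73 among the 346 night genes. Over all tested genes the share was 6.71%. Called genes are in part chosen for a small estimated spread, which this test shares, so the counts are not a separate result. A p that misses the threshold does not show that the changes were equal. The median standard error over tested genes was 0.52 for the shared change, and a difference between cell types has a larger one.

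Light-harvesting genes made the group with the largest share of called members among the lists examined. These are genes with the word Chlorophyll, the first word of the usual name of the chlorophyll a-b binding proteins, which gather light for the photosystems. Of 30 such genes, all tested, 16 rose by day (53.3%, against 1.70% over all tested genes) and 0 by night, and 29 had a positive change. Calls in both cell types numbered 4 of the 16, against 93 of all 642 day genes. The median change of the 30 was 3.13, 3.86 in guard cells and 2.95 in subsidiary cells. Together they took, as lowest, median and highest over the 8 libraries of a time, 0.0390, 0.150 and 0.288% by day and 0.0101, 0.0235 and 0.0532% by night of the reads. The lowest day library, subsidiary-cell day replicate 2, lay below the highest night library, subsidiary-cell night replicate 2. Leaving out any library gave 14 to 18 called genes, edgeR 13 and DESeq2 18.

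Among these, Zm00001d021784 had normalised counts (lowest, median and highest of 8 libraries, as throughout) of 953, 2772 and 4598 by day against 54.05, 102 and 318 by night. All day libraries lay above all night libraries, and guard cells by day were highest. Its change was 4.57 ± 0.32 (adjusted p = 1.17e-07, limma), 5.48 in guard cells and 3.65 in subsidiary cells. For Zm00001d039040 the values were 1110.0, 7995 and 13795 by day against 3.42, 109.7 and 473 by night. The times were again apart, and the change was 5.89 ± 0.60 (adjusted p = 8.43e-06, limma). A pair with close identifiers, Zm00001d033136 and Zm00001d033132, had day medians of 1478 and 1479 and night medians of 32.1 and 42.4. Both were apart between times, with changes of 4.70 ± 0.56 and 4.54 ± 0.55 (adjusted p 5.93e-05 and 7.41e-05, limma). How reads of near-identical copies were counted is not given in the sources used here, so such pairs may not be independent.

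Of the other 12 called light-harvesting genes, the changes ran from 2.50 to 5.91. The call of Zm00001d011285 was lost without subsidiary-cell day replicate 3 (adjusted p 0.0501), that of Zm00001d006663 without guard-cell day replicate 1 or subsidiary-cell day replicate 4 (adjusted p 0.0528), and that of Zm00001d021435 without guard-cell day replicates 1 or 3, guard-cell night replicate 3, subsidiary-cell day replicates 3 or 4 or subsidiary-cell night replicates 2 or 4 (adjusted p 0.0528 to 0.0709). By edgeR, Zm00001d044399, Zm00001d011285 and Zm00001d021435 were not called (adjusted p 0.125, 0.152 and 0.112). DESeq2 did not call Zm00001d044399 either (adjusted p 0.0682). Zm00001d009589 had the largest guard-cell change of the group, 8.28 against 3.54 in subsidiary cells, a difference between cell types of 4.74 ± 1.50 (unadjusted p = 0.00529, adjusted p = 0.555, limma).

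**Figure D2:**
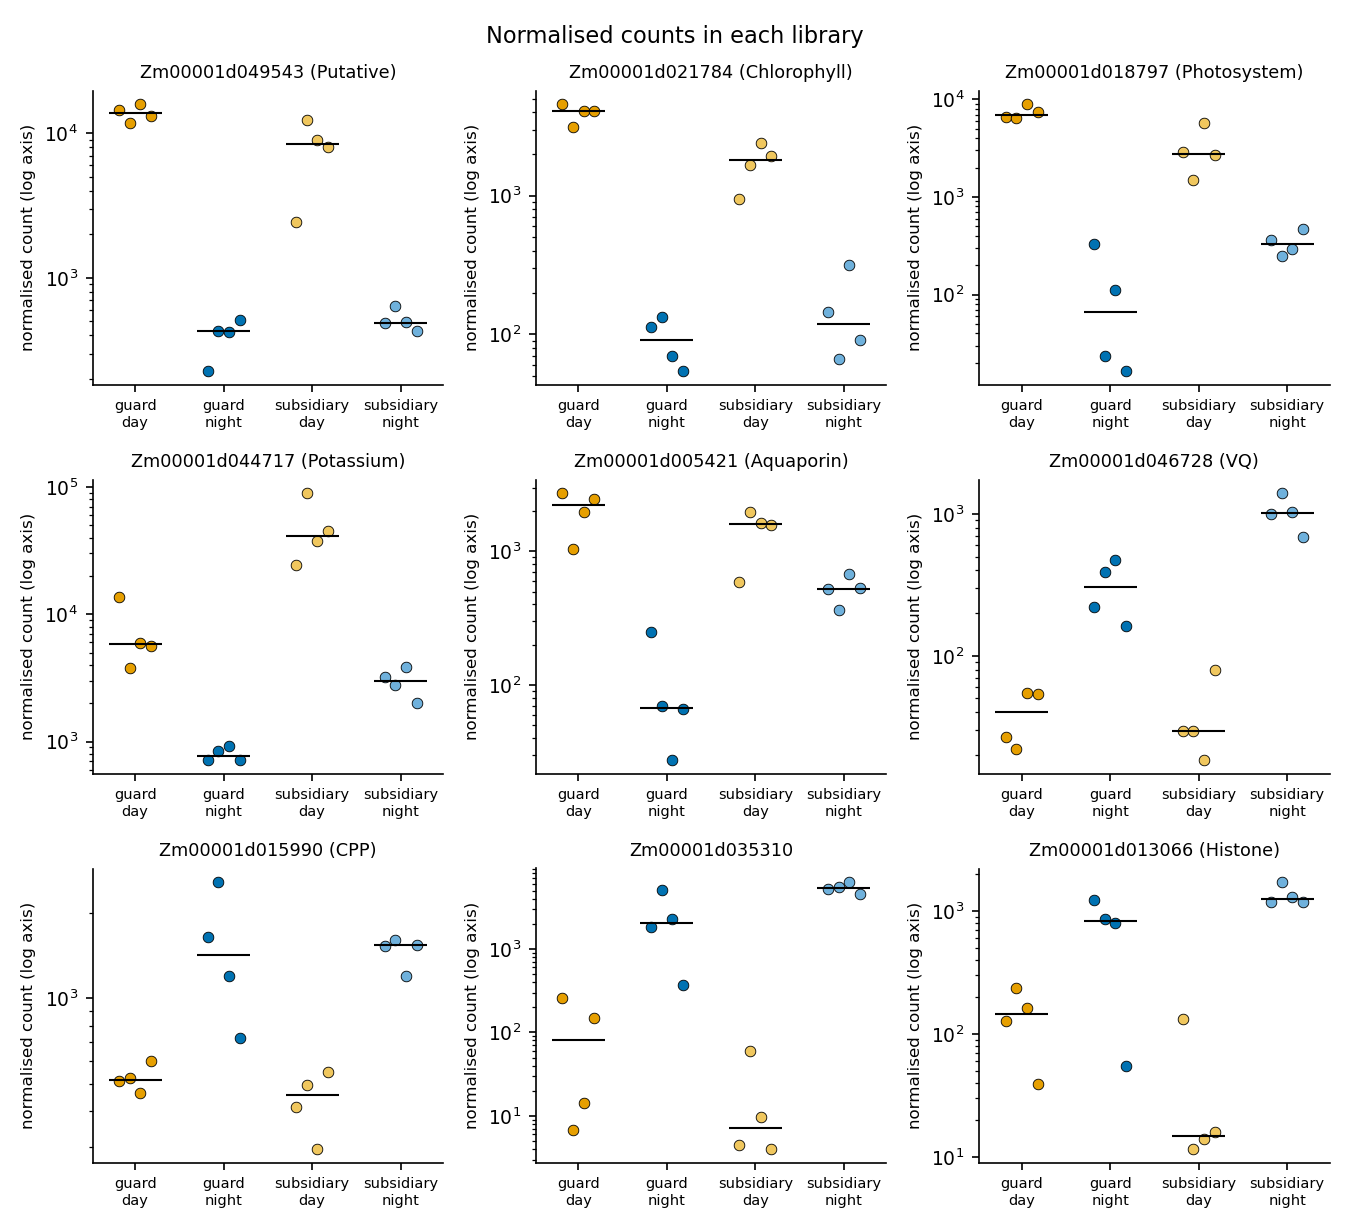
Normalised counts on a log axis for 9 genes in each library of the 4 groups, with 4 points a group and a bar at the group median. In the first 5 panels the day libraries lie above the night libraries of the same cell type, except for the Aquaporin gene in subsidiary cells, where they overlap. In the last 4 the night groups are higher by their medians, with guard-cell night replicate 4 the lowest of its group in each.

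In the photosystem and electron transport list, which holds photosystem subunits, ferredoxins, plastocyanins and thylakoid proteins, 6 of 47 genes rose by day and 0 by night. The day share was 12.8%, against 1.70% over all tested genes. Calls in both cell types numbered 1 of the 6. In 39 the change was positive, and the list's median change was 1.10. The median was 1.84 in guard cells and 0.35 in subsidiary cells. Its leading member, the Photosystem gene Zm00001d018797, had counts of 1504, 6116 and 9009 by day against 16.3, 272 and 473 by night. Every day library exceeded every night library. Its change was 4.97 ± 0.47 (adjusted p = 4.69e-06, limma), 6.86 in guard cells and 3.09 in subsidiary cells, which differ by 3.77 ± 0.94 (unadjusted p = 0.000763, adjusted p = 0.373, limma). PGR5, a protein of cyclic electron flow around photosystem I, had counts of 20.4, 215 and 1308 by day against 0, 18.1 and 109 by night for Zm00001d031850, overlapping between times, and a change of 3.92 ± 0.93 (adjusted p = 0.0257, limma). Its call was lost without guard-cell day replicates 1 or 4, subsidiary-cell day replicates 3 or 4 or subsidiary-cell night replicates 1 or 3 (adjusted p 0.0548 to 0.0603) and by edgeR (adjusted p 0.105) and with a pseudocount of 0.1 (adjusted p 0.0583). The other 4 called genes each lost their call in 7 to 11 of the 16 fits that left out 1 library. The list's count of 6 was 1 without guard-cell day replicate 1, subsidiary-cell day replicate 3 or subsidiary-cell night replicate 1. It was 2 without guard-cell day replicate 3, subsidiary-cell day replicate 4 or subsidiary-cell night replicate 4, and 3 without guard-cell day replicate 4 or subsidiary-cell day replicate 2. Without subsidiary-cell day replicate 1 it was 10, and 9 without both libraries that stood apart. With edgeR it was 1, with quantile normalisation 3 and with DESeq2 11.

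Carbon fixation followed with fewer calls. In the Calvin cycle and photorespiration list 2 of 38 genes rose (5.26%, against 1.70% over all tested genes), 0 fell, and the median change was 0.63. Both were named Glyceraldehyde-3-phosphate, as is the dehydrogenase of the reducing step of the cycle and of glycolysis. Counts of Zm00001d027488 were 754, 3195 and 12651 by day against 109.8, 289 and 2120.0 by night, overlapping between times, with a change of 2.95 ± 0.47 (adjusted p = 0.000947, limma). For Zm00001d003429 they were 594, 2369 and 5359.8 by day against 128, 491 and 2376 by night, also overlapping, with a change of 2.16 ± 0.46 (adjusted p = 0.0116, limma), which edgeR did not call (adjusted p 0.0521). In the carotenoid and photoprotection list 2 of 22 rose (9.09%). One was the Ultraviolet-B-repressible gene Zm00001d022464, 827, 2439.6 and 6171 by day against 149, 345 and 1106 by night, whose highest night library exceeded its lowest day library. It changed by 2.74 ± 0.42 (adjusted p = 0.000719, limma). This gene is in the list by its word alone, which does not show a part in photoprotection. The other, Zm00001d044335, carries the name OHP2, a one-helix thylakoid protein related to the light-harvesting family. Its counts were 92.9, 519.5 and 1068 by day against 15.8, 139 and 345 by night, overlapping, and its change of 2.07 ± 0.49 (adjusted p = 0.0248, limma) lost its call without guard-cell day replicates 1 or 4, guard-cell night replicate 1, subsidiary-cell day replicates 2, 3 or 4 or subsidiary-cell night replicates 2 or 4 (adjusted p 0.0509 to 0.0602). In chlorophyll synthesis 0 of 18 genes were called (limma; 2 at an unadjusted p under 0.05, and 0 by edgeR and 1 by DESeq2), with a median change of -0.05.

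Clock and photoperiod genes, including CONSTANS-like and B-box zinc-finger factors of the flowering pathway, gave 3 called by day of 21 and 0 by night, with a median change of 0.68. The day share was 14.3%, against 1.70% over all tested genes. Calls in both cell types numbered 0 of the 3. The C2C2-CO-like gene Zm00001d046925 had counts of 2878, 5278 and 10867 by day against 222, 1118 and 1562 by night. Its day and night libraries did not overlap, and it changed by 2.41 ± 0.34 (adjusted p = 0.000363, limma), 3.22 in guard cells and 1.61 in subsidiary cells. B-box gene Zm00001d015434 was low at night, 55.5, 248 and 442 by day against 0, 6.07 and 35.8 by night. Here too the times were apart, with a change of 5.27 ± 0.78 (adjusted p = 0.000524, limma). The third, Zm00001d045735, lost its call when any library other than guard-cell day replicates 2 or 3, subsidiary-cell day replicates 1 or 4 or subsidiary-cell night replicate 4 was left out (adjusted p 0.0504 to 0.0831). Of 6 photoreceptor genes 1 was called (16.7%, against 0.916% by night over all tested genes), the Phytochrome gene Zm00001d034038, a red and far-red light receptor. It was higher by night, with counts of 146, 249 and 527 by day against 260.5, 671 and 1293 by night. The times overlapped and the change was -1.30 ± 0.32 (adjusted p = 0.0302, limma). That call was lost when any library other than guard-cell day replicates 2 or 4, guard-cell night replicates 3 or 4, subsidiary-cell day replicate 3 or subsidiary-cell night replicate 4 was left out (adjusted p 0.0504 to 0.0781) and without both libraries that stood apart (adjusted p 0.0709).

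Since epidermal peels can carry mesophyll, which is rich in photosynthetic transcripts, markers of the underlying tissues are given beside these groups. None of the markers of mesophyll (6 genes), bundle sheath (16) or vascular tissue (3) was at 0 in all libraries of a time. The 6 mesophyll markers, carbonic anhydrase and phosphoenolpyruvate carboxylase type names, took 0.00566, 0.0277 and 0.0481% by day and 0.00751, 0.0167 and 0.0216% by night of the reads. The highest library was guard-cell day replicate 1 and the lowest subsidiary-cell day replicate 1. Of the 6, 1 was called by day (16.7%, against 1.70% over all tested genes). This Carbonic gene, Zm00001d005920, had counts of 53.2, 1101 and 1963 by day against 19.8, 131 and 225 by night and a change of 2.78 ± 0.60 (adjusted p = 0.0133, limma). The median change of the 6 was 0.87 and 5 were positive. Bundle sheath markers took 0.0265, 0.0605 and 0.159% by day and 0.0299, 0.0438 and 0.0860% by night, with 0 of 16 called (limma; 4 at an unadjusted p under 0.05, and 0 by edgeR and, by DESeq2, 1 in each direction) and a median change of 0.18. Vascular markers took 0.000605, 0.00153 and 0.00261% by day and 0.000499, 0.00121 and 0.00889% by night, with 0 of 3 called (limma; 0 at an unadjusted p under 0.05, and 0 by edgeR and 0 by DESeq2). Some words of these markers, such as Carbonic and Malic, may fit genes not limited to those tissues, so their shares do not measure carry-over alone. The part of such carry-over in the photosynthetic changes was not tested. Cuticle and pavement epidermis markers, in 42 genes, gave 1 call in each direction. That is 2.38% each way, against 1.70% by day and 0.916% by night over all tested genes. Some of their words, such as 3-ketoacyl-CoA, may fit other enzymes too.

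**Figure D3:**
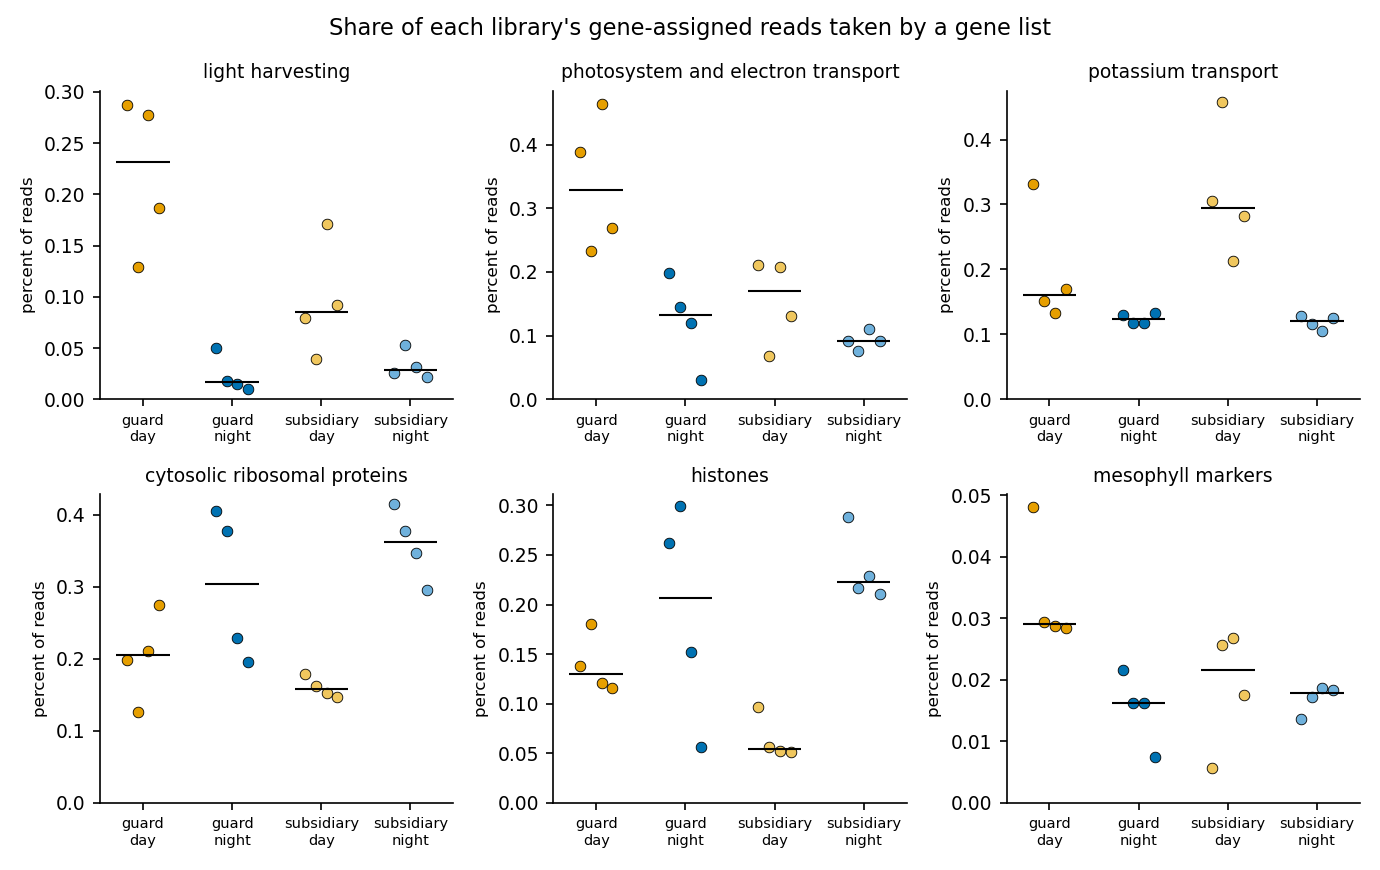
Percent of each library's reads on listed genes taken by 6 gene lists, 4 points a group with a bar at the median. The light-harvesting share runs up to 0.288% by day and 0.0532% by night, the mesophyll markers reach 0.0481% by day and 0.0216% by night, and the ribosomal and histone shares are higher by night in their medians.

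In the potassium transport list, the largest called change was that of the Potassium gene Zm00001d044717, whose word fits several potassium channels and transporters. Its counts were 3764, 19024 and 89624 by day against 711, 1472 and 3829 by night. Guard cells reached 7260.2 ± 4388 by day and 797 ± 106 by night, and subsidiary cells 49159 ± 28294 and 2953 ± 759.5 (mean ± SD, n = 4). Within each cell type the times did not overlap, although the highest subsidiary-cell night library exceeded the lowest guard-cell day library. The change was 3.48 ± 0.30 (adjusted p = 1.22e-06, limma), 3.02 in guard cells and 3.93 in subsidiary cells. Of the 31 genes of the potassium list 2 rose by day and 1 by night, and the list's median change was -0.01. The shares of 6.45% and 3.23% compare with 1.70% and 0.916% over all tested genes. Zm00001d011913, with counts of 857, 2387 and 3951 by day against 394, 837 and 2721 by night, changed by 1.28 ± 0.32 (adjusted p = 0.0374, limma), and Zm00001d036784, with 21.7, 108 and 340.1 by day against 140.0, 485 and 730.5 by night, by -2.04 ± 0.50 (adjusted p = 0.0337, limma). Times overlapped in both. The first call was lost when any library other than guard-cell day replicates 2 or 3, guard-cell night replicates 2 or 3, subsidiary-cell day replicate 1 or subsidiary-cell night replicate 4 was left out (adjusted p 0.0504 to 0.0892) and with quantile normalisation (adjusted p 0.0693). The second was lost when any library other than guard-cell day replicates 1 or 2, guard-cell night replicates 3 or 4, subsidiary-cell day replicates 3 or 4 or subsidiary-cell night replicate 4 was left out (adjusted p 0.0622 to 0.0774), by edgeR (adjusted p 0.0657) and without both libraries that stood apart (adjusted p 0.0766). By edgeR the list thus had 0 night calls.

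Aquaporins, the water channels of membranes, rose in 5 of 22 genes by day and in 0 by night, with a median change of 0.73. The day share was 22.7%, against 1.70% over all tested genes. Calls in both cell types numbered 0 of the 5. Zm00001d005421 had counts of 589, 1802 and 2741 by day against 27.2, 309 and 675 by night, with the night values of subsidiary cells reaching into the day range. It rose by 3.01 ± 0.38 (adjusted p = 0.000113, limma). In guard cells the change was 4.67 and in subsidiary cells 1.36, and the difference between them was 3.31 ± 0.77 (unadjusted p = 0.000388, adjusted p = 0.344, limma). Zm00001d051174 had 143, 704 and 3889 by day against 15.2, 61.2 and 205 by night, overlapping between times, and changed by 3.76 ± 0.54 (adjusted p = 0.000436, limma). The other 3 had changes of 3.04, 4.38 and 1.80 for Zm00001d051872, Zm00001d019563 and Zm00001d017526, and the last lost its call when any library other than guard-cell day replicate 4, subsidiary-cell day replicates 1 or 3 or subsidiary-cell night replicate 3 was left out (adjusted p 0.0569 to 0.0884). Of 27 genes for anion channels and proton pumps, 1 was called by day (3.70%). This V-type proton pump gene, Zm00001d028436, had counts of 1524, 1974 and 2854 by day against 449.5, 1132 and 1742 by night, overlapping, and changed by 0.95 ± 0.25 (adjusted p = 0.0428, limma). Its call was lost when any library other than guard-cell day replicate 3, guard-cell night replicates 1, 2 or 4, subsidiary-cell day replicate 1 or subsidiary-cell night replicate 4 was left out (adjusted p 0.0586 to 0.102) and by edgeR (adjusted p 0.0795), the additive model (adjusted p 0.0602) and quantile normalisation (adjusted p 0.104).

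Both directions were seen in the list of abscisic acid genes and type 2C protein phosphatases, a class that in Arabidopsis includes negative regulators of abscisic acid signalling. The list of 32 gave 1 call in each direction. That is 3.1% each way, against 1.70% by day and 0.916% by night over all tested genes. The 2C-type gene Zm00001d009626 had counts of 1247, 3379 and 6824 by day against 63.5, 403 and 504 by night, with no overlap, and rose by 3.41 ± 0.40 (adjusted p = 4.51e-05, limma), 3.65 in guard cells and 3.18 in subsidiary cells. Another 2C-type gene, Zm00001d014291, was higher by night, 162, 295 and 683 by day against 328, 1216 and 5283 by night, with overlapping times and a change of -2.09 ± 0.34 (adjusted p = 0.00118, limma).

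**Figure D4:**
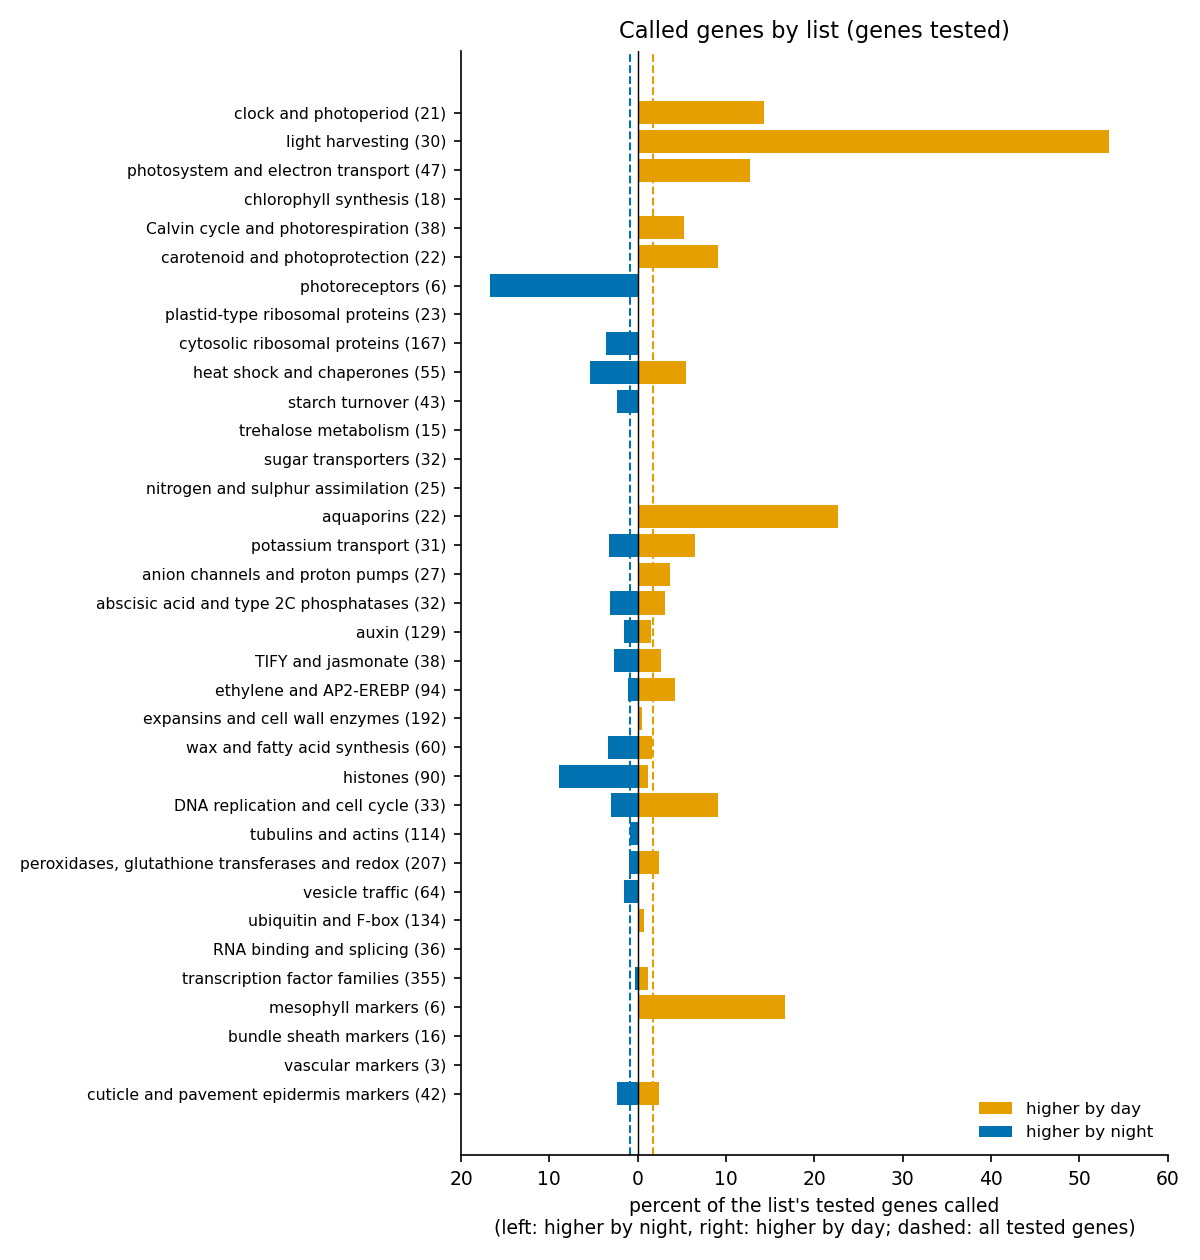
Percent of each list's tested genes that were called, to the right for higher by day (orange) and to the left for higher by night (blue), with the number of genes tested in brackets. Dashed lines give the same percent over all tested genes, 1.70% by day and 0.916% by night. Light harvesting reaches 53.3% by day and histones 8.89% by night, and a single gene makes up the bars of the photoreceptor and mesophyll lists.

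Other day genes picked by size of p belong to none of these lists. The largest fitted change among them was that of Zm00001d016269, described only as Putative, with counts of 168, 1050.0 and 5104 by day against 1.56, 9.93 and 63.3 by night and no overlap. It changed by 6.37 ± 0.63 (adjusted p = 6.76e-06, limma). Zm00001d049543, also Putative, had counts of 2442, 12113 and 15957 by day against 226, 459 and 637 by night, again apart, and a change of 4.46 ± 0.29 (adjusted p = 5.28e-08, limma), the smallest p of any described gene. Another Putative gene, Zm00001d008914, rose by 3.21 ± 0.37 (adjusted p = 4.36e-05, limma) from 16.3, 37.6 and 80.3 by night to 189, 369.6 and 402 by day, with all day libraries above all night libraries. Zm00001d006184, with the word Leaf, showed 1479, 2756 and 4873 by day against 193, 355 and 552 by night and a change of 2.85 ± 0.24 (adjusted p = 7.90e-07, limma). The Glucose-6-phosphate gene Zm00001d020771, whose word fits several enzymes and a transporter of that sugar phosphate, had 1408, 4492 and 8667 by day against 389, 461 and 809 by night. It rose by 2.94 ± 0.27 (adjusted p = 3.42e-06, limma), and in this gene as in the one before no night library reached the day range.

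Cell-cycle genes were higher by day in 3 of 33 (9.09%) and by night in 1 (3.03%), against 1.70% and 0.916% over all tested genes. The list's median change was -0.08. E2F-DP factors switch on genes of DNA synthesis, and Zm00001d004512 of that name had counts of 1069.7, 2307 and 5229.5 by day against 371, 521 and 766 by night, apart between times. Its change was 2.25 ± 0.23 (adjusted p = 1.02e-05, limma). In subsidiary cells it was 3.17 and in guard cells 1.33, a guard minus subsidiary difference of -1.84 ± 0.46 (unadjusted p = 0.000828, adjusted p = 0.373, limma). The Cyclin gene Zm00001d008221 had 384, 534 and 737 by day against 83.5, 144 and 263 by night, with no overlap and a change of 1.90 ± 0.30 (adjusted p = 0.000854, limma). The word Anaphase-promoting, after the ubiquitin ligase of mitosis, held 1 call in each direction. Zm00001d028837 had 213, 371 and 752 by day against 0, 39.5 and 129.9 by night, again apart, and rose by 4.11 ± 0.76 (adjusted p = 0.00396, limma), 2.66 in guard cells against 5.57 for subsidiary cells. It was not called by edgeR (adjusted p 0.0556). The other, Zm00001d038881, was higher by night at 2.71, 49.9 and 142 by day against 87.7, 196 and 324 by night, with overlap and a change of -2.57 ± 0.55 (adjusted p = 0.0128, limma).

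The 3 genes of smallest p by day that carry no description were Zm00001d031054, Zm00001d014756 and Zm00001d017147. Counts of Zm00001d031054 were 3578, 6519 and 9884 by day against 222, 369 and 631 by night, those of Zm00001d014756 2539, 3983 and 4666 by day against 80.02, 202 and 290.1 by night, and those of Zm00001d017147 962, 1759 and 2670.1 by day against 41.3, 72.5 and 156 by night. In all 3 the night libraries lay wholly below the day libraries, and the changes were 4.06 ± 0.25, 4.45 ± 0.29 and 4.48 ± 0.31 (adjusted p 4.82e-08, 5.28e-08 and 1.17e-07, limma). Of the 642 day genes 490 have no description, and of the 346 night genes 256.

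Only 6 described night genes had 8 night libraries above all 8 day libraries and a mean log2 value of at least 3. The VQ gene Zm00001d046728, from a plant family known for binding WRKY transcription factors, had counts of 18.3, 29.5 and 79.4 by day against 163, 581 and 1404 by night. Its night libraries were highest in subsidiary cells, and it changed by -3.89 ± 0.39 (adjusted p = 8.42e-06, limma), -2.94 in guard cells and -4.85 in subsidiary cells. Next came the CPP gene Zm00001d015990, a cysteine-rich transcription factor type, which had 294, 503 and 600.4 by day against 727, 1538 and 2573 by night and changed by -1.59 ± 0.25 (adjusted p = 0.000947, limma). The times were apart in both of these genes, as in the 4 that follow. A Putative gene, Zm00001d042821, had 1.32, 25.5 and 64.4 by day against 112, 344 and 538 by night and changed by -4.11 ± 0.70 (adjusted p = 0.00187, limma). Kinesin-like Zm00001d009926, a microtubule motor by name, had 193, 319 and 465 by day against 467, 918 and 1538 by night, a change of -1.44 ± 0.27 (adjusted p = 0.00518, limma). It was the only call among 114 tubulin, actin and motor genes (0.877% by night, near the 0.916% over all tested genes). The last members were Zm00001d012831 (Cleavage) and Zm00001d007202 (Lon, an organelle protease). The first had 60.9, 169 and 277 by day against 349.9, 639.8 and 3591 by night and changed by -2.35 ± 0.46 (adjusted p = 0.00691, limma), and the second had 325, 464 and 612 by day against 663, 1043 and 1511 by night and changed by -1.13 ± 0.24 (adjusted p = 0.011, limma). In guard cells the changes of these 6 were smaller than in subsidiary cells, though their differences between cell types did not pass the test.

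Among night genes without a description, Zm00001d035310 had the largest change of any called night gene, -7.01 ± 0.71 (adjusted p = 8.42e-06, limma). Its counts were 3.97, 12.1 and 259.5 by day against 371, 4814 and 6349 by night, and the lowest night library was guard-cell night replicate 4 at 371. No day library reached it. Zm00001d042137 had 391, 739 and 957 by day against 993, 8439 and 10114 by night with no overlap and a change of -3.09 ± 0.34 (adjusted p = 2.60e-05, limma). Zm00001d052876 had 84.9, 154 and 518 by day against 319, 2127 and 5662 by night and changed by -3.41 ± 0.38 (adjusted p = 2.60e-05, limma), with the highest day library above the lowest night library.

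Histones package DNA, and their transcripts in dividing cells peak during DNA synthesis. The word Histone may also begin the names of other proteins. Genes with this word were higher by night in 8 of 90 (8.89%) and by day in 1 (1.11%), against 0.916% and 1.70% over all tested genes. The median change was -0.61, and 63 were negative. It was -0.31 in guard cells and -1.09 in subsidiary cells. As lowest, median and highest library, they took 0.0512, 0.106 and 0.180% by day and 0.0559, 0.223 and 0.299% by night of the reads. The lowest night library was guard-cell night replicate 4, and the 4 subsidiary-cell night libraries all lay above every day library. Without guard-cell night replicate 4 the night calls rose to 13, and without both libraries that stood apart to 14. DESeq2 gave 14 and edgeR 8. In the main fit, 0 of the 90 were called in both cell types. For the difference between cell types, 19 of the 90 had an unadjusted p under 0.05 (limma), against 6.71% over all tested genes. At the adjusted threshold the count was 0.

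Zm00001d025335 had low counts in most day libraries, at 1.32, 8.64 and 156 by day against 101, 178 and 652 by night, with the times overlapping. Its change was -4.20 ± 0.64 (adjusted p = 0.000688, limma), -2.63 in guard cells and -5.77 in subsidiary cells. For Zm00001d013066 the counts were 11.6, 83.5 and 236 by day against 54.9, 1187 and 1721 by night. Its lowest night library was guard-cell night replicate 4, at 54.9, below several day libraries, and the change was -3.84 ± 0.62 (adjusted p = 0.00111, limma). The abundant Zm00001d036036 had 864, 2193 and 4558 by day against 1212, 8188 and 11134 by night and a change of -1.74 ± 0.36 (adjusted p = 0.00949, limma), -0.69 in guard cells and -2.79 in subsidiary cells. One call, that of Zm00001d019045, was lost without subsidiary-cell night replicate 1 (adjusted p 0.0524). The member that moved the other way, Zm00001d021300, had 93.1, 181 and 438 by day against 5.47, 26.2 and 220.3 by night and a change of 2.68 ± 0.55 (adjusted p = 0.00971, limma), 1.09 in guard cells and 4.26 in subsidiary cells. Zm00001d044246 and Zm00001d044247, also called by night, have close identifiers and may share reads.

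Cytosolic ribosomal proteins, the 40S and 60S subunit components of the translation machinery, had a median change of -0.74 with 135 of 167 negative. Only 6 were called, all higher by night (3.59%, against 0.916% over all tested genes). They took 0.126, 0.171 and 0.274% by day and 0.196, 0.362 and 0.414% by night of the reads, with the highest day library, guard-cell day replicate 4, above 2 night libraries. The 40S gene Zm00001d037886 had counts of 15.7, 241 and 352 by day against 171, 562 and 966 by night and a change of -1.95 ± 0.46 (adjusted p = 0.0237, limma), and the 40S gene Zm00001d019147 had 35.1, 118 and 566 by day against 111, 416 and 1141 by night and -1.96 ± 0.46 (adjusted p = 0.0237, limma). Times overlapped in both. The first lost its call without guard-cell night replicates 1 or 2 or subsidiary-cell night replicate 3 (adjusted p 0.0527 to 0.0559), and the second without guard-cell night replicates 2 or 3, subsidiary-cell day replicate 3 or subsidiary-cell night replicate 1 (adjusted p 0.0508 to 0.062) and by edgeR (adjusted p 0.0555) and the additive model, with cell type and time alone (adjusted p 0.0783). The near-equal averages of these 40S genes leaned on different cell types. Zm00001d037886 changed by -3.08 in guard cells against -0.83 for subsidiary cells, and was called in guard cells only. Zm00001d019147 changed by -0.44 in guard cells against -3.48 for subsidiary cells, and was called in subsidiary cells only. Their differences between cell types did not pass the test (adjusted p 0.684 and 0.532, limma). The count of 6 rested on single libraries. It was 0 without guard-cell night replicate 2, 1 without subsidiary-cell night replicate 1, and 2 without guard-cell night replicates 1 or 3 or subsidiary-cell night replicate 3. It was 3 without guard-cell day replicate 2, subsidiary-cell day replicate 3 or subsidiary-cell night replicate 2. Without guard-cell night replicate 4, or without both libraries that stood apart, it was 18, and DESeq2 gave 15. Genes of plastid-type ribosomes gave 0 calls of 23 (limma; 1 at an unadjusted p under 0.05, and 0 by edgeR and 0 by DESeq2), with a median of -0.45.

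**Figure D5:**
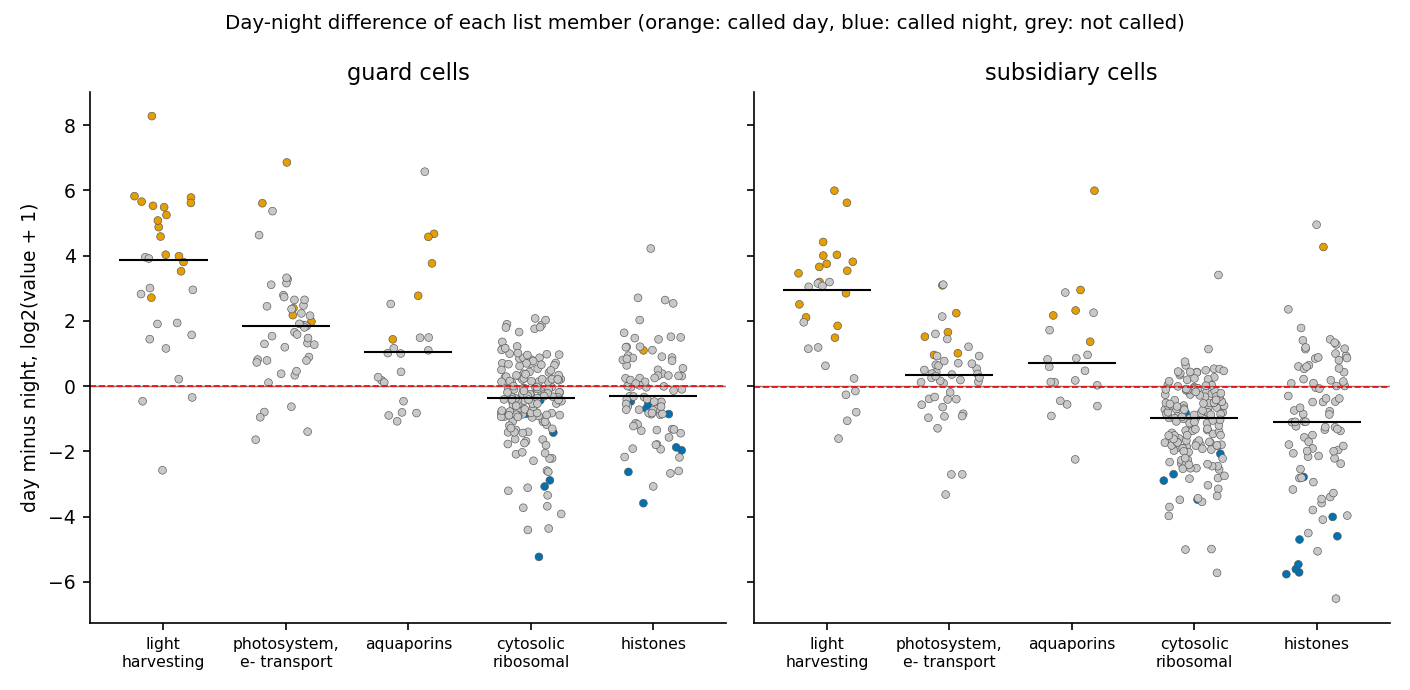
Day minus night change in log2(value + 1) of every tested member of 5 lists in guard cells (left) and subsidiary cells (right). Points are genes, coloured by the shared call, black bars are list medians and the red dashed line is the median of all tested genes. The light-harvesting medians are 3.86 and 2.95, those of the ribosomal list -0.38 and -0.98, and those of the histones -0.31 and -1.09.

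Of 55 heat shock and chaperone genes 3 were called in each direction, and the median change was -0.25. The share of 5.45% each way compares with 1.70% by day and 0.916% by night over all tested genes. DnaJ co-chaperone gene Zm00001d012242 rose by day, 217, 599 and 1639 by day against 22.6, 83.05 and 249 by night, with overlap and a change of 2.80 ± 0.46 (adjusted p = 0.00137, limma). So did the Heat gene Zm00001d028630, at 481, 1618 and 4070.1 by day against 98.5, 287 and 564 by night and 2.48 ± 0.43 (adjusted p = 0.00202, limma). A small heat shock gene, Hsp20/alpha Zm00001d021634, was higher by night at 21.8, 60.3 and 199 by day against 154, 1068 and 1552 by night, overlapping between times, with a change of -3.60 ± 0.43 (adjusted p = 5.93e-05, limma). Another Heat gene, Zm00001d047214, had 14.7, 60.6 and 174 by day against 144, 280.0 and 1873 by night and a change of -2.39 ± 0.52 (adjusted p = 0.0133, limma), overlapping as well, and DESeq2 gave it no adjusted p. The third night call, Zm00001d046299, was lost when any library other than guard-cell day replicate 1 or guard-cell night replicate 4 was left out (adjusted p 0.0507 to 0.109).

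Among hormone-related lists, auxin genes gave 2 calls by day and 2 by night of 129, or 1.55% in each direction against 1.70% by day and 0.916% by night over all tested genes. Day calls were Zm00001d049295 (Auxin), 408, 1466 and 2960.5 by day against 311, 374 and 710.1 by night, 1.49 ± 0.25 (adjusted p = 0.00147, limma), and the SAUR gene Zm00001d020605, 35.8, 110.1 and 320.2 by day against 0, 15.7 and 85.4 by night, 3.80 ± 0.87 (adjusted p = 0.0204, limma), the latter not called by edgeR (adjusted p 0.0999). Night calls were Zm00001d016277 (Auxin-responsive), 87.4, 129 and 414 by day against 244, 424 and 793 by night, -1.53 ± 0.32 (adjusted p = 0.0119, limma), and Zm00001d031064 (Auxin), 556, 752 and 1526 by day against 1402, 1705 and 9623 by night, -1.35 ± 0.33 (adjusted p = 0.0318, limma). All 4 overlapped between times, and the last lost its call when any library other than guard-cell day replicate 3, guard-cell night replicate 4, subsidiary-cell day replicate 1 or subsidiary-cell night replicates 1, 2 or 4 was left out (adjusted p 0.0511 to 0.071). Without subsidiary-cell day replicate 1 there were 5 auxin day calls, and without guard-cell night replicate 4 there were 4 night calls. Jasmonate-related genes gave 1 call each way of 38 (2.63% each). TIFY4 (Zm00001d027901), of a family that includes jasmonate signalling repressors, had 23.7, 101 and 381 by day against 3.43, 19.3 and 61.2 by night and changed by 2.51 ± 0.66 (adjusted p = 0.0496, limma). That call was lost when any library other than guard-cell night replicate 2 or subsidiary-cell day replicate 3 was left out (adjusted p 0.0561 to 0.107) and also without both libraries that stood apart (adjusted p 0.113), with other scalings, with a pseudocount of 0.1, without a filter and with library weights (adjusted p 0.0506 to 0.0758). Lipoxygenase Zm00001d013493, from a class that starts jasmonate synthesis, was higher by night at 92.1, 216 and 633 by day against 326, 771 and 1852 by night, with a change of -1.62 ± 0.32 (adjusted p = 0.00705, limma). Both overlapped between times.

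Of 94 ethylene and AP2-EREBP genes 4 were called by day (4.26%, against 1.70% over all tested genes) and 1 by night (1.06%, against 0.916%). Ethylene-responsive Zm00001d018158 had 282, 466 and 999 by day against 12.01, 119 and 313 by night and rose by 2.36 ± 0.48 (adjusted p = 0.00855, limma). AP2 gene Zm00001d038001 had 127, 315 and 476 by day against 25.3, 63.1 and 291 by night and rose by 2.02 ± 0.43 (adjusted p = 0.0115, limma). By night the call was Zm00001d018211, named 1-aminocyclopropane-1-carboxylate after the ethylene precursor, at 36.6, 50.3 and 329 by day against 52.3, 459.5 and 1316 by night and -1.94 ± 0.46 (adjusted p = 0.0267, limma). In each of these the highest library of the lower time exceeded the lowest of the other. That night call was lost without guard-cell day replicate 1, guard-cell night replicates 1 or 2, subsidiary-cell day replicate 3 or subsidiary-cell night replicates 3 or 4 (adjusted p 0.0501 to 0.0712). The 4 day calls became 2 without guard-cell day replicates 1, 3 or 4, subsidiary-cell day replicate 2, or subsidiary-cell night replicates 1 or 4.

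In the wax and fatty acid list, whose words fit makers of the cuticle that seals the epidermis among others, 1 of 60 genes rose by day and 2 by night. The shares were 1.67% and 3.33%, against 1.70% and 0.916% over all tested genes. A 3-ketoacyl-CoA gene, Zm00001d032728, had 2415, 3079.7 and 4634 by day against 132, 939 and 1073 by night with no overlap and a change of 2.16 ± 0.33 (adjusted p = 0.000688, limma). Its word fits the enzymes that lengthen fatty acids for wax but is not limited to them. Another of that word, Zm00001d030343, moved the other way, 45.4, 139 and 227 by day against 149, 375 and 836 by night, with a change of -1.64 ± 0.37 (adjusted p = 0.0173, limma). So did the Acyl-[acyl-carrier-protein] gene Zm00001d006080, 75.4, 252 and 396 by day against 295, 887 and 1613 by night, at -1.996 ± 0.37 (adjusted p = 0.00426, limma). Both overlapped between times. The list of expansins and cell wall enzymes had 1 call, by day, in 192 tested genes (0.521%). This Pectate gene, Zm00001d036158, had 205, 654 and 1486 by day against 52.7, 121 and 665 by night, overlapping, and rose by 2.19 ± 0.36 (adjusted p = 0.00126, limma) with 2.20 in guard cells and 2.19 in subsidiary cells.

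Peroxidases, glutathione transferases and other redox genes gave 5 calls by day and 2 by night of 207, shares of 2.42% and 0.966% that are near those over all tested genes (1.70% and 0.916%). GST7, a glutathione transferase (Zm00001d042104), had 843, 7478 and 17421 by day against 177, 350.0 and 2778 by night, overlapping between times, and rose by 3.24 ± 0.35 (adjusted p = 1.63e-05, limma). Peroxidase Zm00001d005279 had 82.04, 347 and 952 by day against 7.52, 22.9 and 40.2 by night, with no overlap, and rose by 3.99 ± 0.51 (adjusted p = 0.000132, limma). Peroxidase Zm00001d037550 was higher by night at 50.3, 81.5 and 240.5 by day against 75.5, 1351 and 2889.7 by night and -3.15 ± 0.46 (adjusted p = 0.000437, limma), with guard cells at -1.52 and subsidiary cells at -4.77. Peroxidase Zm00001d026357, 92.6, 346 and 504 by day against 167, 1232 and 2005 by night, changed by -1.56 ± 0.40 (adjusted p = 0.0381, limma) and lost its call when any library other than guard-cell day replicates 1 or 3, guard-cell night replicate 4 or subsidiary-cell day replicates 1 or 2 was left out (adjusted p 0.0539 to 0.0837) and under the additive model (adjusted p 0.0533). The last pair overlapped between times. Day calls of this list fell to 3 without guard-cell day replicates 1 or 3, guard-cell night replicate 1, subsidiary-cell day replicate 2 or subsidiary-cell night replicate 1, and night calls rose to 6 without guard-cell night replicate 4.

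Transcription factor families gave 4 day calls and 1 night call in 355 genes (1.13% and 0.282%, against 1.70% and 0.916% over all tested genes). WRKY gene Zm00001d043062 had 240.3, 1679 and 4922 by day against 65.2, 247 and 767 by night and rose by 2.57 ± 0.39 (adjusted p = 0.00066, limma). C2H2 zinc-finger gene Zm00001d023558 had 655, 1705 and 3571 by day against 132, 426 and 868 by night and rose by 2.01 ± 0.35 (adjusted p = 0.00218, limma). A different WRKY gene, Zm00001d002405, was higher by night at 7.94, 46.6 and 1007 by day against 274, 682 and 1077 by night and -3.54 ± 0.66 (adjusted p = 0.004, limma). All 3 overlapped between times. The day count of 4 was 7 without subsidiary-cell day replicate 1, 2 without subsidiary-cell night replicate 1 and 12 with DESeq2, and the night count of 1 was 5 without guard-cell night replicate 4, 3 without guard-cell day replicate 2 and 4 with DESeq2. It was 2 by edgeR and without guard-cell day replicate 3 or subsidiary-cell day replicates 1 or 2, so these shares set no order against all genes.

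Several lists held a single call. The shares called were 2.33% of starch turnover and 1.56% of vesicle traffic by night, and 0.746% of ubiquitin and F-box by day. Over all tested genes they were 0.916% by night and 1.70% by day. The Starch gene Zm00001d019479, in a list of 43 genes of starch turnover, was higher by night at 408, 675 and 1416 by day against 565, 1919 and 3216 by night and -1.29 ± 0.30 (adjusted p = 0.0245, limma), and lost its call without guard-cell day replicate 4, guard-cell night replicates 2 or 3, subsidiary-cell day replicate 2 or subsidiary-cell night replicates 1 or 2 (adjusted p 0.0527 to 0.0563). VAMP gene Zm00001d026664, a vesicle fusion protein, was the only call among 64 vesicle traffic genes, at 5.42, 76.00 and 234 by day against 112, 389 and 1055 by night and -2.78 ± 0.70 (adjusted p = 0.0367, limma), lost when any library other than guard-cell day replicate 2, guard-cell night replicate 4, subsidiary-cell day replicates 1, 2, 3 or 4 or subsidiary-cell night replicate 3 was left out (adjusted p 0.0515 to 0.089) and by edgeR (adjusted p 0.0559). In the ubiquitin and F-box list of 134, Polyubiquitin Zm00001d053834 rose by day, 2597, 8614 and 13268 by day against 785, 3364 and 4696 by night, by 1.31 ± 0.34 (adjusted p = 0.0481, limma). That call was lost when any library other than guard-cell night replicates 1 or 4 or subsidiary-cell day replicates 1 or 4 was left out (adjusted p 0.0525 to 0.106) and by edgeR (adjusted p 0.0609), the additive model (adjusted p 0.0776), quantile normalisation (adjusted p 0.203) and a pseudocount of 0.1 (adjusted p 0.0541). In all 3 genes the times overlapped.

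No member was called by limma in 4 further lists. They were trehalose metabolism (15 genes, 0 at an unadjusted p under 0.05), sugar transporters (32 genes, 2), nitrogen and sulphur assimilation (25 genes, 5) and RNA binding and splicing (36 genes, 2). Their median changes were 0.24, 0.19, 0.14 and -0.39. By edgeR and by DESeq2 the nitrogen and sulphur list gave 1 call by day and the other 3 lists 0.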

How the data were processed

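Per the labels' protocols, RNA of laser-cut guard and subsidiary cells was amplified with SMART-Seq v4 and sequenced from Nextera XT libraries. The authors deposited a table of normalised counts, here of the unit signal, made with DESeq2 1.40.2 per the submitters' processing notes. The genome build is B73 RefGen_v4 per the same notes, while for the aligner, counter and annotation the entry is: not given in the sources used here. Values are whole multiples of 1 step per library in 100% of entries (tolerance 0.01 reads), so the authors' deposited counts could be recovered as whole reads for edgeR, DESeq2 and shares of reads. Every normalised count column was used.

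Groups were taken from the labels. Titles of subsidiary-cell samples taken by night contain a word for day, whereas their treatment label and library name say night, which was followed. A limma-trend fit (limma 3.58.1, R 4.3.3) of 4 group means to log2(value + 1) left 12 residual degrees of freedom, with the shared change as the mean of both cell types' day minus night contrasts. Adjusted p-values are Benjamini-Hochberg over 37759 genes. Library quality was compared by exact permutation within cell types, and 420 genes with low values were left out. Alternatives were other scalings, pseudocounts of 10 and 0.1, other filters, library weights, edgeR 4.0.16, DESeq2 1.42.0, a replicate block, and fits leaving out libraries. The replicate numbers were not taken as pairs.

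Named genes were the 12 of smallest p per direction among called genes that had a description, separate day and night ranges over 8 and 8 libraries, and a mean log2 value no lower than 3 (6 by night met this). To them were added up to 2 called members per direction of each list and the 3 of smallest p per direction without a description. Other list members named beyond these were added after their values were seen. The comparison and the lists were chosen with earlier results of these data known. Of the gene identifiers 0 matched the reference table of another assembly, so no coordinates or sequences are given.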

Additional observations from a re-analysis of the deposited data

Results flagged for a closer look

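In groups of 4 libraries, 17 of the 316 groups examined held a library further from the other 3 than Dixon's 95% limit, and chance flags about 1 in 20 groups. Values below are normalised counts of that library against the range of the other 3.

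Among day genes, the Glucose-6-phosphate gene Zm00001d020771 had 809 against 389 to 422 in subsidiary-cell night replicate 3. E2F-DP gene Zm00001d004512 had 2904 against 5057 to 5229.5 in subsidiary-cell day replicate 2, and Zm00001d008914 (Putative) 331 against 382 to 391 in guard-cell day replicate 2. The Chlorophyll gene Zm00001d033132 had 178 against 19.7 to 23.4 in guard-cell night replicate 1. Heat gene Zm00001d028630 had 108 against 479.9 to 564 in guard-cell night replicate 3. Peroxidase Zm00001d005279 had 82.04 against 319 to 355 in subsidiary-cell day replicate 4, and Histone gene Zm00001d021300 178 against 93.1 to 102 in guard-cell day replicate 3.

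Guard-cell night replicate 4, 1 of the libraries that stood apart, was low in 3 genes. They were the 40S gene Zm00001d019147 with 111 against 369 to 428, Histone gene Zm00001d013066 with 54.9 against 802 to 1218 and Polyubiquitin Zm00001d053834 with 785 against 3185 to 4079. Subsidiary-cell day replicate 1, the other such library, was high in Zm00001d013066 with 131 against 11.6 to 15.9 and low in VAMP gene Zm00001d026664 with 6.80 against 151 to 234.

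Among other night genes, CPP gene Zm00001d015990 had 1199 against 1531 to 1603 in subsidiary-cell night replicate 3. Heat gene Zm00001d047214 had 1873 against 272 to 356 in subsidiary-cell night replicate 2, and Lipoxygenase Zm00001d013493 1852 against 751 to 871 in subsidiary-cell night replicate 4. Of the library measures, the read total of subsidiary-cell night replicate 4 was 28.9 M against 21.98 to 22.8 M, and the mean correlation of guard-cell day replicate 1 with other libraries was 0.75 against 0.707 to 0.713.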

How the results depend on the processing

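The count of 988 shared calls stayed within 1.5 times under each scaling, pseudocount, filter, the additive model (928), library weights and edgeR (893), and became 2168 with DESeq2 (1263 by day and 905 by night). Fits leaving out 1 library gave 722 to 1266, and leaving out both libraries that stood apart gave 1309. The count of 109 in both cell types became 173 with library weights, 291 with DESeq2 and 187 without both libraries, and ran from 70 to 155 over the leave-one-out fits. The 0 genes for the cell type difference became 4 with a pseudocount of 10, 149 with DESeq2 and 1 with edgeR, and 0 to 6 over the leave-one-out fits. The additive model has no term for these last comparisons and gives no value. The cause of these differences was not tested.

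Deviations of same-numbered libraries of different groups had correlations of -0.061 to 0.0794 over 24 pairs, within the -0.0887 to 0.123 of the 72 other pairs. Of the 16 libraries, 6 correlated best with their own number. These values do not exclude a pairing, but none is given in the sources used here, and the numbers were not taken as pairs. With the replicate block 888 genes were called, 89 in both cell types and 0 for the difference. Of the 74 named genes, 56 were called under each of the 13 alternatives and 16 leave-one-out fits, 15 lost their call in at least 1 leave-one-out fit, 14 in at least 1 other alternative, 8 with edgeR and 7 with the block, and none of them changed direction. Upper-quartile scaling and quantile normalisation gave 60.6% and 59.7% of calls by day, against 65.0%. Depth limits low genes: at 3 reads or fewer in a library a gene was taken as not told apart from 0, a floor set by choice and not measured here.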

Other observations

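Some description words outside the lists recurred among the called genes. They were picked after the calls were seen and carry no test. Over all tested genes 1.70% were called by day and 0.916% by night. Glycine-rich genes, 10 tested, gave 3 night calls, Zm00001d041246, Zm00001d012052 and Zm00001d031168. The abundant Zm00001d031168 had counts (lowest, median and highest of 8 libraries) of 2095, 4277 and 16326 by day against 1736, 50397 and 78439.7 by night, overlapping between times, and a change of -2.64 ± 0.56 (adjusted p = 0.0113, limma). The other 2 changed by -3.45 ± 0.54 and -2.05 ± 0.36 (adjusted p 0.000877 and 0.00226, limma). In each of the 16 leave-one-out fits all 3 were called.

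Carboxypeptidase genes, a protease class, gave 4 day calls of 44. Zm00001d049055 had 601, 1312 and 3607 by day against 453, 502 and 772 by night and a change of 1.43 ± 0.24 (adjusted p = 0.00174, limma), and Zm00001d025195 had 1917, 5379 and 18273 by day against 329, 1713 and 4731 by night and 1.67 ± 0.36 (adjusted p = 0.0133, limma). Times overlapped in both. Zm00001d022374 and Zm00001d005973, at 1.73 ± 0.42 and 0.90 ± 0.22, lost their calls in 9 and 11 of the leave-one-out fits, the first when any library other than guard-cell day replicates 2 or 3, guard-cell night replicates 1, 2 or 4, subsidiary-cell day replicate 1 or subsidiary-cell night replicate 4 was left out (adjusted p 0.0517 to 0.0702) and the second when any library other than guard-cell day replicates 3 or 4, guard-cell night replicates 1 or 4 or subsidiary-cell night replicate 4 was left out (adjusted p 0.0503 to 0.0879).

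Histone-lysine, the first word of the name of histone methyltransferases, held 2 day calls of 8, opposite in direction to most called histone genes. Zm00001d047636 had 729, 1468 and 2701 by day against 301, 416 and 895 by night and a change of 1.69 ± 0.27 (adjusted p = 0.000947, limma), and Zm00001d028890 had 1325, 1646 and 2913 by day against 270.2, 541 and 1807 by night and 1.60 ± 0.33 (adjusted p = 0.0093, limma), both overlapping between times. The word Cell held 2 night calls of 14 with neighbouring identifiers. Zm00001d012900 had 9.04, 67.2 and 843 by day against 546, 4520.3 and 8469 by night and changed by -5.19 ± 0.55 (adjusted p = 1.57e-05, limma), and Zm00001d012899 had 3.40, 27.5 and 259 by day against 44.2, 869.6 and 2531 by night and changed by -4.07 ± 0.74 (adjusted p = 0.00329, limma).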
